A study of Mus musculus with 31 samples.

Results

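The members of the Myc family and the D-type cyclins described here are Mycn, Myc, Ccnd1, Ccnd2 and Ccnd3. They were chosen by name, 2 genes of the Myc family and 3 D-type cyclins, and make up 5 of 18194 genes with a probe set of their own on the array. Of the probe sets annotated to a gene alone, the brightest by its mean across the 31 arrays was used. Values are log2 intensities, on which a difference of 1 is a 2-fold change.

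The arrays covered 27 biological samples, all C57BL/6 mouse material per the labels. Neural stem cells (NSC) had been grown as neurospheres, floating cultures fed with EGF and FGF2, from postnatal day 7 mice, with 3 cultures each from the forebrain's subventricular zone (SVZ), from the IV ventricle and from cerebellar white matter. Tumour cultures, called cancer stem cells in the labels, were grown under the same conditions from medulloblastoma, a tumour of the cerebellum. There were 8 lines from tumours labelled Ptch het p53 wt (wild-type lines below) and cultures of 2 tumours, 27 and B, labelled Ptch het p53 het (het cultures below). Matched tissue of the same 8 Ptch het p53 wt tumours, without culture, was also measured, and no tissue of the het tumours was. All tumours were therefore heterozygous for Ptch, whose product restrains hedgehog signalling, while the NSC sample names carry only the letters WT. Each line stands for 1 tumour, tumour mouse ages were not given in the sources used here, and each het culture was measured on 3 technical replicate arrays, which were averaged.

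Myc and Mycn encode closely related transcription factors that bind DNA as partners of Max and raise the expression of genes for ribosomes, nucleotides and growth. Mycn is the member that Sonic hedgehog induces in the granule neuron precursors of the postnatal cerebellum, whereas Myc is an early target of growth factor signalling in many cells. D-type cyclins activate Cdk4 and Cdk6, which phosphorylate the retinoblastoma protein and so release E2F factors for S phase. Ccnd1 and Ccnd2 are both used by granule neuron precursors, and Ccnd1 follows mitogen signalling through the MAP kinase pathway.

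As a guide to the reading of genes that are not expressed, 43 probe sets of olfactory receptors had a median of 1.53 and a 95th percentile of 2.64 over all arrays. Where the lower of a pair of group means lay under 2.64, that level replaced it and the difference is a lower bound, written with at least. The arrays had medians between 3.17 and 3.32. The het cultures stood apart from the other tumour cultures in markers of their labelled type: the mean of 7 neural stem cell markers was 6.94 and 7.14 in the het cultures, against 8.27 to 9.24 in the 8 wild-type lines and 8.86 to 9.24 in the NSC. Egfr, the EGF receptor, read 1.88 and 4.15 in the het cultures and 7.12 to 9.15 in the wild-type lines, while Sox2 was at a mean of 9.55 in the former and 10.03 in the latter. In the tissue all 9 markers of granule neuron precursors were above the low level guide, and Atoh1, Neurod1, Barhl1 and Barhl2 were under it in the group means of the wild-type lines, the het cultures and all 3 kinds of NSC.

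Among the members, Mycn differed most between groups, and its promoter is shown because that gene sets tissue apart from every culture. The 250 bases upstream of its start in RefSeq (GRCm38.p6, chr12:12941837-12942086, minus strand) are 54.8% G or C, and the capitals mark matches to an E2F site.

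Mycn promoter: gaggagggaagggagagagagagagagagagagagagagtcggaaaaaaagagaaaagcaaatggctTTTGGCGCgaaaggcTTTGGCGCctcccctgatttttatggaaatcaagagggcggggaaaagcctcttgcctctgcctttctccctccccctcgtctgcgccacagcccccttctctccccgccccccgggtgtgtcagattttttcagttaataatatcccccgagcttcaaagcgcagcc

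The E2F letters searched were TTTGGCGC, on both strands, and they begin 183 and 168 bases before the start. Of 32851 mouse promoter windows of the same length, 137 (0.417%) hold these letters at least 1 time. An E-box bound by Myc and its partners (CACGTG, in 6.02% of windows) and a Gli site (GGGTGGTC, in 0.703% of windows) had no match in the Mycn window. The same 3 motifs had no match in the windows before the 2 starts listed for Ccnd3. These matches describe letters only. Promoter sequences of Myc, Ccnd1 and Ccnd2 were not used here.

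Mycn was highest in tissue. In the 8 tumour tissues Mycn had its lowest value at 8.86, its median at 9.26 and its highest at 9.62. In the wild-type lines the lowest was 1.93, the median 2.40 and the highest 3.08. Every tissue thus lay far above every line, and the mean of the lines was under the low level guide. The 3 SVZ cultures read 3.51, 3.52 and 3.74, the 3 IV ventricle cultures 2.42, 2.54 and 2.65, and the 3 cerebellar cultures 2.31, 2.79 and 2.86. The het cultures read 2.98 for tumour 27 and 2.34 for tumour B. Ordered by mean, tissue (9.27) was followed by SVZ NSC (3.59), het cultures (2.66), cerebellar NSC (2.65), IV ventricle NSC (2.54) and wild-type lines (2.39). The last 4 groups overlapped with their neighbours in that order.

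For Myc, the other family member, tissue stood at the opposite end of the order. It was lowest, with values from 4.81 through a median of 5.68 to 6.08. The wild-type lines ranged from 6.99 through 7.26 to 7.63, and none of them overlapped with tissue. The IV ventricle cultures read 7.55, 7.76 and 8.21, the cerebellar cultures 7.58, 7.94 and 8.04, and the SVZ cultures 7.46, 7.59 and 7.76, so the regions overlapped. Both het cultures, at 8.26 (tumour 27) and 8.29 (tumour B), were above all other samples. Their technical replicates spread from 7.81 to 8.69 in tumour 27 and from 8.08 to 8.47 in tumour B, wider than the gap between the het means and several NSC cultures.

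Ccnd1 separated the samples into a high and a low set. The 8 wild-type lines lay within 11.16 and 11.38 (median 11.30) and overlapped with the NSC, which ranged from 10.98 to 11.45. Tissue was lower, from 9.33 through 9.77 to 10.04, and the het cultures, at 9.88 (tumour 27) and 9.36 (tumour B), lay within the range of tissue. The SD over the 8 wild-type lines was 0.083, the smallest among the probe sets used for the 5 members. Other probe sets of Ccnd1 gave 0.15 (1448698_at) and 0.32 (1417419_at), so this order rests on the probe sets chosen.

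Ccnd2 had group means of 10.98 to 11.35 outside the het cultures. Its values were 10.75 to 11.33 in the wild-type lines (median 10.98), 10.58 to 11.38 in tissue (median 10.91) and 10.94 to 11.63 in the 9 NSC cultures. Tumour 27 read 9.31 and tumour B 6.63, below every other sample, and the technical replicates of the former (9.13 to 9.46) did not overlap with those of the latter (6.38 to 7.06).

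Ccnd3 was highest in the het cultures, which read 8.94 (tumour 27) and 9.34 (tumour B). No other sample passed 7.74, the value of wild-type line 91. The remaining lines ranged down to 5.98 in line 77 (group median 6.79), tissue from 6.26 to 7.22 (median 6.67) and the NSC from 6.93 to 7.44. Among the wild-type lines Ccnd3 had the largest SD of the 5 members by the probe sets used, 0.52. Its other probe sets gave 0.24 (1444323_at) and 0.20 (1438805_at), and 1 of Ccnd2 gave 0.41 (1416123_at), so this order rests on the probe sets chosen.

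**Figure D1:**
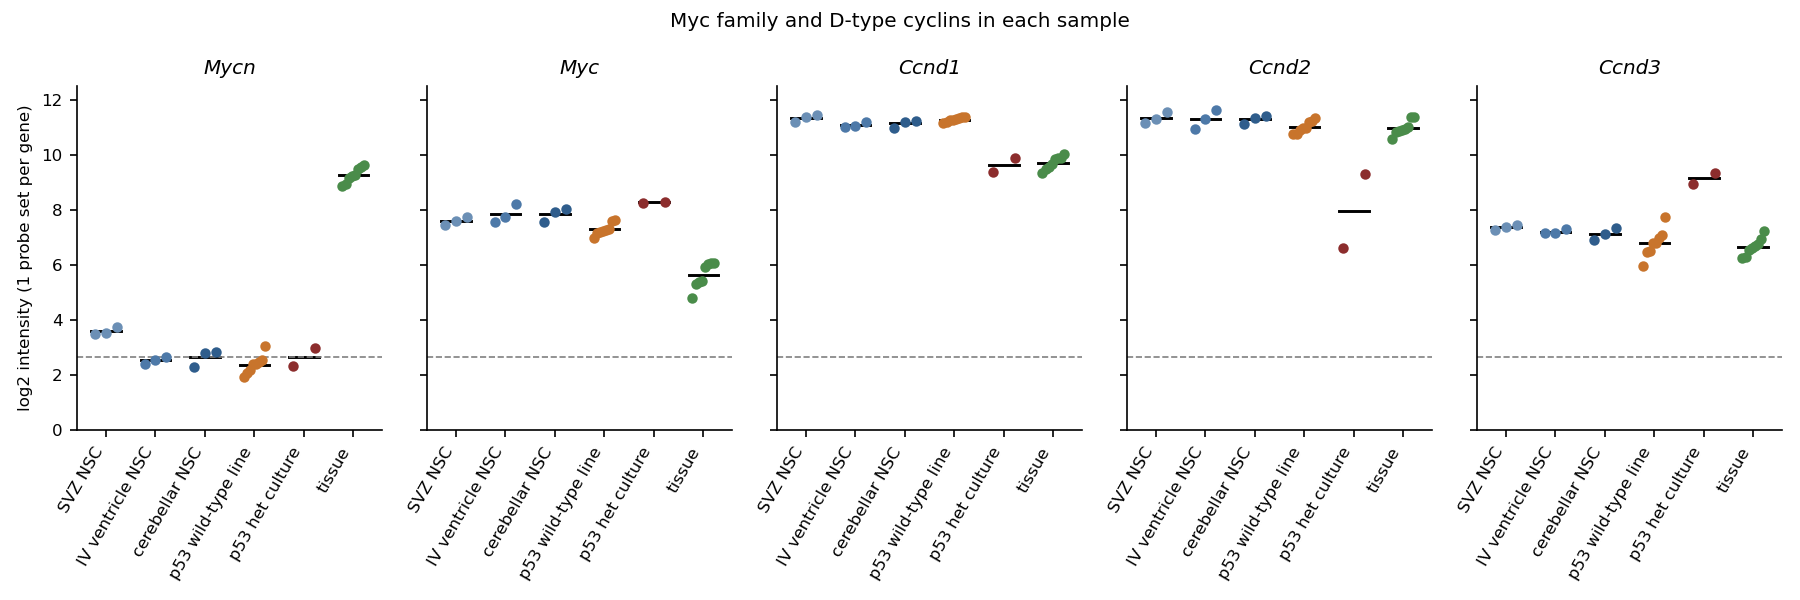
Log2 intensity of the 5 members (vertical axis, 1 panel a gene) in each of 27 samples, by group; each point is 1 culture or tissue, the bar is the group mean and the dashed line the low level guide of 2.64. Tissue lies above every culture for Mycn and below every culture for Myc, and the 2 het cultures stand apart for Ccnd2 and Ccnd3.

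The matched pairs address the question of which member takes the place of which between a tumour and the line grown from it. Mycn was lower in the line than in its own tissue in all 8 tumours and Myc was higher in all 8. Among the cyclins Ccnd1 was higher in every line, and neither Ccnd2 nor Ccnd3 fell in exchange. In this comparison 9033 of 18194 genes (49.6%) were called at an adjusted p under 0.05, so the 3 of 5 members called are close to the share of all genes. The fit was limma's, with the tumour as a block and Benjamini-Hochberg adjustment over all genes.

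Mycn was lower in lines by at least 6.63, that is at least 98.7-fold (adjusted p = 8.91e-10). In 7 of the 8 lines Mycn was under the low level guide, so the size of the fall in each of those tumours is known only as a bound, of at least 6.21 to 6.98. In tumour 68, where the line read 3.08, the fall was 6.08. A further probe set of Mycn, 1425922_a_at, gave a difference of -4.26. The third, 1425923_at, read 3.998 to 4.77 over all 27 samples and was 0.12 higher in lines (adjusted p = 0.281), so the direction was not seen with that probe set. The probe set described here has the widest range of the 3, from 1.93 to 9.62. It was taken for its mean over all arrays, 4.37 against 4.28 for 1425923_at. By group means it was the brighter of that pair only in tissue, so the choice depended on the tissue arrays.

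Myc was higher in lines by 1.67 ± 0.14 (adjusted p = 4.91e-06), or 3.18-fold. The rise was 1.10 in tumour 77, the smallest, and 2.21 in tumour 68, the largest. Myc has only this probe set on the array.

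Ccnd1 was higher in lines by 1.57 ± 0.08 (adjusted p = 2.04e-07), or 2.96-fold. The rise ran from 1.14 in tumour 92 to 1.83 in tumour 9, and the other probe sets of Ccnd1 gave 1.84 and 1.72. Its line values and tissue values did not overlap.

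Ccnd2 differed by 0.03 ± 0.08 between lines and tissue (adjusted p = 0.767), with a 95% interval from -0.15 to 0.22. It was higher in the line in tumours 49, 9 and 83 and lower in the other 5, and its 7 probe sets gave differences between -0.12 and 0.11. Ccnd3 differed by 0.13 ± 0.17 (adjusted p = 0.576), with an interval from -0.26 to 0.51. The Ccnd3 difference went from -0.75 in tumour 74 to 1.03 in tumour 91, the widest spread among the cyclins by the probe sets used.

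**Figure D2:**
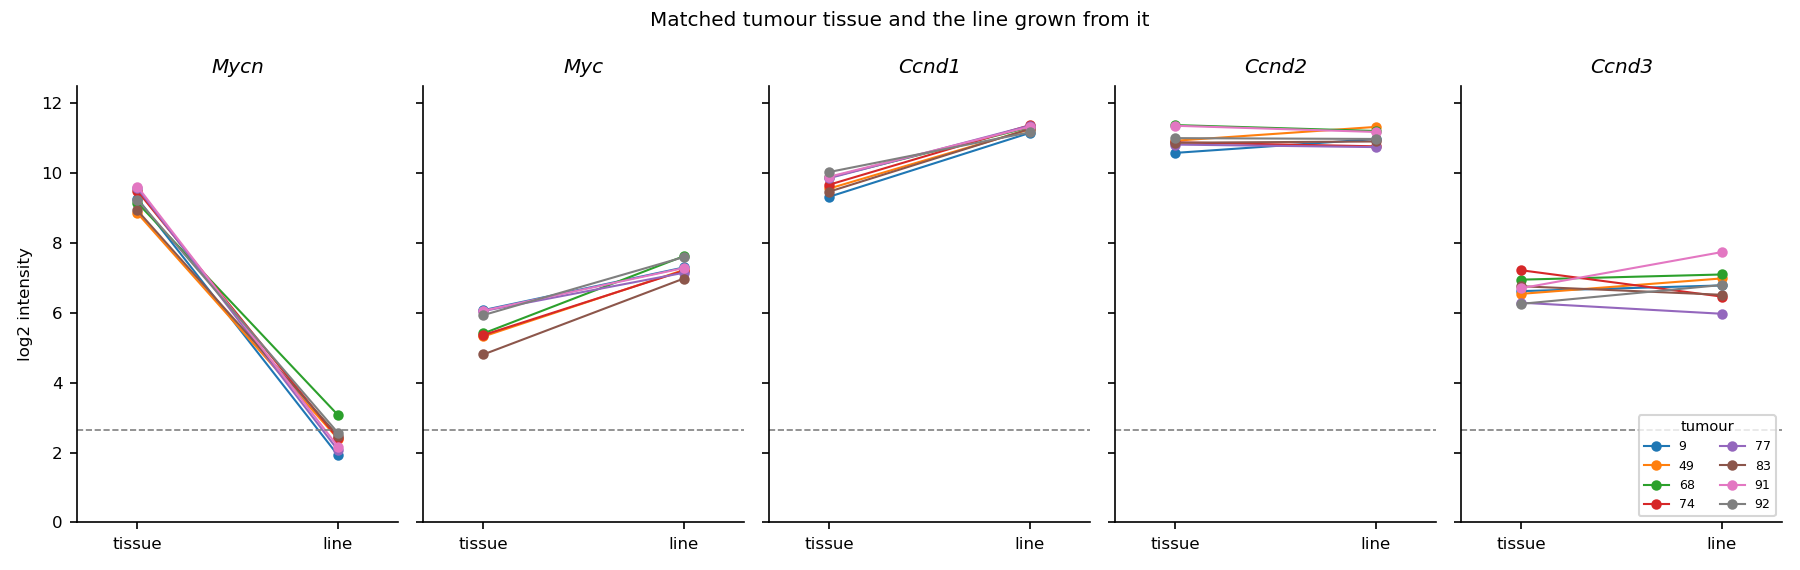
Log2 intensity (vertical axis) in tumour tissue and in the line of the same tumour, joined by a line, for each of 8 tumours and the 5 members; the dashed line is the low level guide of 2.64. All 8 lines fall for Mycn and rise for Myc and Ccnd1, while those of Ccnd2 and Ccnd3 go in both directions.

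Levels of different probe sets cannot be set against each other, so members of a family were compared by the change of each gene in each tumour. With Mycn values under the guide set to it, the changes of Myc and Mycn lay at least 7.86 to 8.69 apart in the 8 tumours, a description whose sign follows from Mycn being lower and Myc higher in every line. The Ccnd1 change exceeded that of Ccnd2 by 1.53 ± 0.22 (SD, n = 8 tumours) and that of Ccnd3 by 1.44 ± 0.70, in 8 of 8 tumours each (exact two-sided sign-flip test, both p = 0.00781, adjusted over 4 pairs 0.0104). Ccnd2 and Ccnd3 differed by -0.09 ± 0.59, above 0 in 4 of 8 tumours (exact p = 0.664, adjusted 0.664). The value 0.00781 is the smallest that 8 tumours allow. The smallest Ccnd1 change, 1.14, lay above the largest of Ccnd2, 0.40, and of Ccnd3, 1.03. The tests of Ccnd1 therefore restate the changes given above and are no separate evidence.

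For 4 tumours the names of line and tissue carry the same date mark, and for the other 4 they do not. Within the former Mycn fell by at least 6.60 to 6.98 by tumour, and the mean differences were 1.49 for Myc and 1.53 for Ccnd1. Within the latter Mycn fell by at least 6.08 to 6.93, and Myc and Ccnd1 differed by 1.85 and 1.61. All 3 members remained called in both sets of tumours (adjusted p from 3.47e-06 to 0.00174). The meaning of a date mark was not stated in the labels.

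Markers of several cell types differed between tissue and lines along with the members, and in bulk RNA fewer cells of a type and less RNA per cell cannot be told apart. All 10 microglia and macrophage markers were lower in lines than in tissue, with mean levels of 6.08 to 7.32 in tissue and 1.78 to 2.27 in lines, where 8 of the 10 were under the guide. The 9 granule neuron precursor markers averaged 7.95 to 8.73 in tissue and 3.28 to 4.21 in lines. Mature neuron markers averaged 4.66 to 7.34 against 2.62 to 2.82, and endothelial and pericyte markers 3.55 to 4.10 against 2.03 to 2.43. Astrocyte markers averaged 6.37 to 8.32 in tissue and 5.22 to 5.98 in lines, but only 4 of 7 were lower in lines, while Slc1a3 was higher (1.38 ± 0.19, adjusted p = 1.62e-04) and S100b and Gja1 were not called. Of 6 oligodendrocyte markers 2 were lower, Mbp and Mag, and the other 4 were not called (averages 3.62 to 5.28 against 3.47 to 3.84). The neural stem cell list went mostly the other way, with 5 of 7 markers higher in lines and 2 lower (median 2.27), among them Sox2 (4.32 ± 0.16, adjusted p = 1.51e-08), Nes (2.95 ± 0.10, adjusted p = 1.13e-08) and Vim (2.42 ± 0.12, adjusted p = 1.53e-07). The 3 red blood cell markers measured were under the guide in every group. The part of these markers' cells in the differences of the 5 members was not tested.

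Genes around the members were counted from lists, each read against the 49.6% called and the median of all genes, 0.06. Of 11 partners in the Myc network measured, 2 were higher in lines and 5 lower (median -0.09). Mycl, the third Myc family gene, fell with Mycn, from 7.89 to 4.69 (-3.20 ± 0.19, adjusted p = 4.25e-07). Mxi1 (-1.78 ± 0.12) and Mga (-1.02 ± 0.08), which compete with Myc for Max or bind it, were also lower (adjusted p = 8.49e-07 and 2.20e-06), and Mlx and Mxd4 were higher by 0.96 and 0.59. Max itself was lower by 0.54 (adjusted p = 0.00134).

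Of 24 Myc target genes for ribosome and nucleotide synthesis, 8 were higher in lines, 8 lower and 8 not called, with a median of 0.04. The higher genes included Cad, which starts pyrimidine synthesis (0.94 ± 0.09, adjusted p = 9.53e-06), Srm, the spermidine synthase (0.71 ± 0.07, adjusted p = 2.36e-05) and Ldha, lactate dehydrogenase (1.32 ± 0.15, adjusted p = 3.45e-05). The lower genes included Odc1, the enzyme that precedes Srm in polyamine synthesis (-0.86 ± 0.15, adjusted p = 7.56e-04), Apex1 (-0.64 ± 0.08) and Fbl, the nucleolar fibrillarin (-0.36 ± 0.07).

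The kinase partners of the D-type cyclins differed from each other. Cdk4 was at 9.51 to 10.10 in lines and 9.60 to 10.07 in tissue (difference -0.01 ± 0.10, adjusted p = 0.938). Cdk6 was at 3.12 to 6.35 in lines and 9.53 to 10.40 in tissue, a difference of -5.80 ± 0.34 (adjusted p = 3.77e-07). Of the 12 genes in the list of kinases, inhibitors and pocket proteins, 4 were higher in lines and 3 lower, with a median of 0.06. The inhibitor Cdkn1a was higher by 1.99 ± 0.22 (adjusted p = 3.32e-05) and Cdkn2c by 0.90 ± 0.13, whereas Cdkn1b was lower, at 7.67 in lines and 8.67 in tissue (adjusted p = 9.76e-07). Among the pocket proteins Rb1 differed by -0.60 ± 0.09 and Rbl1 by 0.83 ± 0.13. Cdkn2a ranged from 1.38 to 5.94 over the 8 lines and was higher than in tissue by at least 1.27 (adjusted p = 0.0449).

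Of 19 S phase and mitosis genes, 8 were higher in lines and 3 lower, with a median of 0.15. Rrm2 (0.93 ± 0.09) and Ccne1 (0.77 ± 0.11) were higher, E2f1 (-0.90 ± 0.10) and Mcm7 (-0.58 ± 0.07) were lower, and Mki67 was not called, at 10.1 in lines and 9.96 in tissue (0.15 ± 0.08, adjusted p = 0.170). Of 11 genes for the turnover of Myc and cyclin proteins only Fbxo4 was called, higher by 0.59 ± 0.06 (adjusted p = 2.36e-05).

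Hedgehog genes were mostly lower in lines and growth factor response genes mostly higher. Of 7 hedgehog genes measured, 5 were lower in lines and Smo was higher (median -1.63). Gli1, the most direct output of the pathway, was lower by at least 4.48 (adjusted p = 2.95e-08), Sfrp1 by 7.03 (fitted difference -7.03 ± 0.40, adjusted p = 3.29e-07) and Gli2 by 3.56 (fitted difference -3.56 ± 0.21, adjusted p = 4.18e-07). Of 16 EGF and FGF response genes, 12 were higher in lines and only Dusp5 was lower (median 2.58). The feedback genes Spry4 (4.40 ± 0.17, adjusted p = 2.21e-08), Dusp6 (2.65 ± 0.11, adjusted p = 4.04e-08) and Spry2 (2.65 ± 0.12, adjusted p = 6.39e-08) were among them. The cultures were grown with EGF and FGF2 and the tissue was not, and the part of these factors in the values of Myc and Ccnd1 was not tested.

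**Figure D3:**
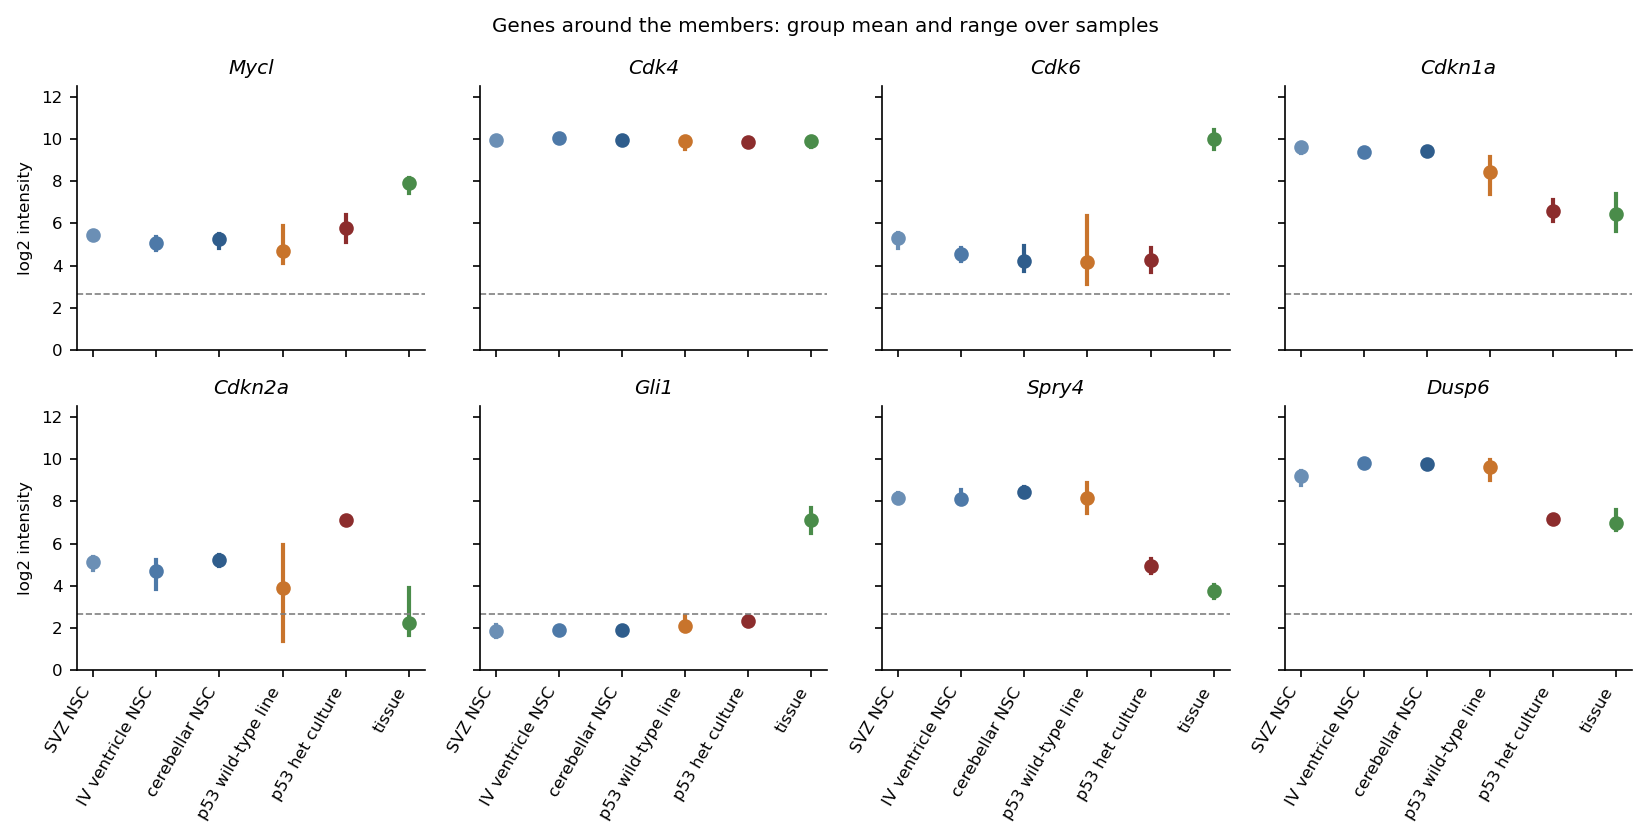
Group mean (point) and range over samples (bar) of log2 intensity (vertical axis) for 8 genes of the lists, in 6 groups; the dashed line is the low level guide of 2.64. Mycl, Cdk6 and Gli1 are high in tissue, Spry4 and Dusp6 are high in NSC and wild-type lines and lower in tissue and het cultures, and Cdk4 is level.

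Tissue was also set against cerebellar NSC, the stem cells of the same part of the brain. This comparison shares its 8 tissue arrays with the one above, so the pair is not independent. It called 8368 genes (46%) and 4 of the 5 members. Mycn was higher in tissue by 6.62 ± 0.16 (adjusted p = 5.93e-15), with the NSC mean of 2.65 at the low level guide. Myc was lower by 2.22 in tissue (fitted difference -2.22 ± 0.24, adjusted p = 7.43e-07) and Ccnd1 differed by -1.42 ± 0.13 (adjusted p = 1.21e-07). Neither gene's tissue values overlapped with those of cerebellar NSC.

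Ccnd3 was lower in tissue than in cerebellar NSC by a smaller amount (-0.47 ± 0.16, adjusted p = 0.0265). Leaving out cerebellar replicate 1 (adjusted p = 0.153) or 2 (0.0682), fitting only the arrays compared (0.0583) and taking the date mark as a random block (0.0528) each ended the call. Ccnd2 was not called (-0.30 ± 0.16, adjusted p = 0.147, 95% interval -0.65 to 0.04). Among the list genes, Cdk6 was 5.79 ± 0.23 higher in tissue (adjusted p = 2.88e-12) and Mycl 2.62 ± 0.17 (adjusted p = 1.30e-09), 5 of 7 hedgehog genes were higher and 1 lower (median 3.52), and 15 of 16 EGF and FGF response genes were lower and 1 higher (median -2.72). The median over all genes was -0.07.

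Between NSC of the 3 regions, which were grown alike, the D-type cyclins and Myc were not called in any comparison. Of 18194 genes, limma called 0 (0%) between IV ventricle and cerebellar NSC, where 559 had an unadjusted p under 0.05, and 139 (0.764%) and 201 (1.1%) when IV ventricle and cerebellar NSC were compared with SVZ NSC. Mycn was the member called in the last pair of comparisons. It was lower in IV ventricle NSC than in SVZ NSC by at least 0.95 (adjusted p = 0.0124) and differed by -0.94 ± 0.15 between cerebellar and SVZ NSC (adjusted p = 0.0196). Both comparisons share the SVZ cultures.

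These regional values were close to the low level guide and rested on few samples. The first call was lost without IV ventricle replicate 1 (adjusted p = 0.0561), SVZ replicate 1 (0.0544) or SVZ replicate 2 (0.0795), and the second without SVZ replicate 1 (0.0769), 2 (0.105) or 3 (0.0557). Neither was called with the other probe sets of Mycn, where 1425922_a_at differed by -0.22 (adjusted p = 0.800) and -0.11 (0.826), nor within the date mark shared by the regions (adjusted p = 0.0703 and 0.0769). For the other members the 95% intervals of the IV ventricle less SVZ difference were -0.17 to 0.64 for Myc, -0.51 to -0.00309 for Ccnd1 (adjusted p = 0.521), -0.45 to 0.34 for Ccnd2 and -0.42 to 0.12 for Ccnd3.

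The reference for the wild-type lines was hindbrain NSC, that is, IV ventricle and cerebellar NSC with equal weight. Of all genes 1740 (9.56%) were called, and of the members only Myc, which was lower in the lines (-0.55 ± 0.12, adjusted p = 0.00817). The call held with the date mark as a random block (adjusted p = 0.0293), though lines and NSC share no date mark. It was lost against IV ventricle NSC alone (0.0576). Mycn was not called (-0.21 ± 0.16, adjusted p = 0.490) and both means were under the guide. Ccnd1 differed by 0.17 ± 0.08 (adjusted p = 0.220), and the 95% intervals of the other cyclins were -0.85 to 0.31 for Ccnd2 and -0.78 to 0.03 for Ccnd3.

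Without line 91, the line with the highest Ccnd3, that cyclin was called lower in the lines than in hindbrain NSC (-0.51 ± 0.15, adjusted p = 0.0455). Of the 24 Myc target genes 6 were lower in the lines than in hindbrain NSC and none higher (median -0.26, all genes 0.00327), among them Cad (-0.71 ± 0.12, adjusted p = 0.00127), Pa2g4 (-0.61 ± 0.11, adjusted p = 0.00282) and Srm (-0.60 ± 0.12, adjusted p = 0.00395). None of 11 Myc partners was called. Of the cyclin kinase list, the inhibitors Cdkn2b (-1.96 ± 0.39, adjusted p = 0.00428) and Cdkn1a (-0.95 ± 0.24, adjusted p = 0.0171) were lower.

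Het cultures differed from wild-type lines in all 3 D-type cyclins. Ccnd3 was higher, Ccnd1 and Ccnd2 were lower, and Myc was higher. The fit called 4782 genes (26.3%) and 4 of the 5 members. The het group holds only 2 tumours, whose spread was taken to be like that of the other cultures, and nothing in the labels says whether the replicate cultures of the other groups came from separate animals beyond the words biological replicate or a tumour number, so p-values measure the spread between these samples.

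Ccnd2 was lower by 3.05 in het cultures (fitted difference -3.05 ± 0.40, adjusted p = 2.21e-05), or 8.27-fold, with a 95% interval from -3.89 to -2.20. Without tumour 27 the difference was -4.39 and without tumour B it was -1.71, both outside that interval. The SD of Ccnd2 was 1.90 over the 2 het cultures and 0.21 over the wild-type lines. The SE, interval and p, which rest on the spread of all cultures, therefore understate the spread of the het group. All 7 probe sets of Ccnd2 were lower, with differences from -3.57 to -2.87.

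Ccnd3 was higher by 2.34 ± 0.28 (adjusted p = 9.00e-06), or 5.08-fold, with an interval from 1.75 to 2.94. The other Ccnd3 probe sets gave 0.85 (1444323_at) and 1.17 (1438805_at, a dim probe set that read 1.01 to 2.66 over all samples), both in the same direction. Ccnd1 differed by -1.66 ± 0.12 (adjusted p = 1.64e-08), or 3.16-fold, and its other probe sets by -1.65 and -1.37.

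Myc was higher by 0.98 ± 0.17 (adjusted p = 4.29e-04), or 1.97-fold. Mycn was not called (0.27 ± 0.23, adjusted p = 0.466) and was at or under the low level guide in both groups. The date marks of the het cultures occur in no other group, so no value within a mark can be given. With the date mark as a random block, each het culture was a block of its own, so that fit cannot separate the het label from the mark. All 4 called members were also called in it (adjusted p from 5.70e-08 to 9.44e-04).

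Against hindbrain NSC, whose arrays also served for the wild-type lines, the fit called 4878 genes (26.8%) and 3 members. Ccnd2 differed by -3.32 ± 0.41 (adjusted p = 1.22e-05), Ccnd1 by -1.49 ± 0.12 (adjusted p = 1.04e-07) and Ccnd3 by 1.97 ± 0.29 (adjusted p = 7.40e-05). Ccnd2 was -4.66 without tumour 27 and -1.98 without tumour B. Myc was higher by 0.43 ± 0.18 and not called (adjusted p = 0.0916), but was called without IV ventricle replicate 2 (0.0279).

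**Figure D4:**
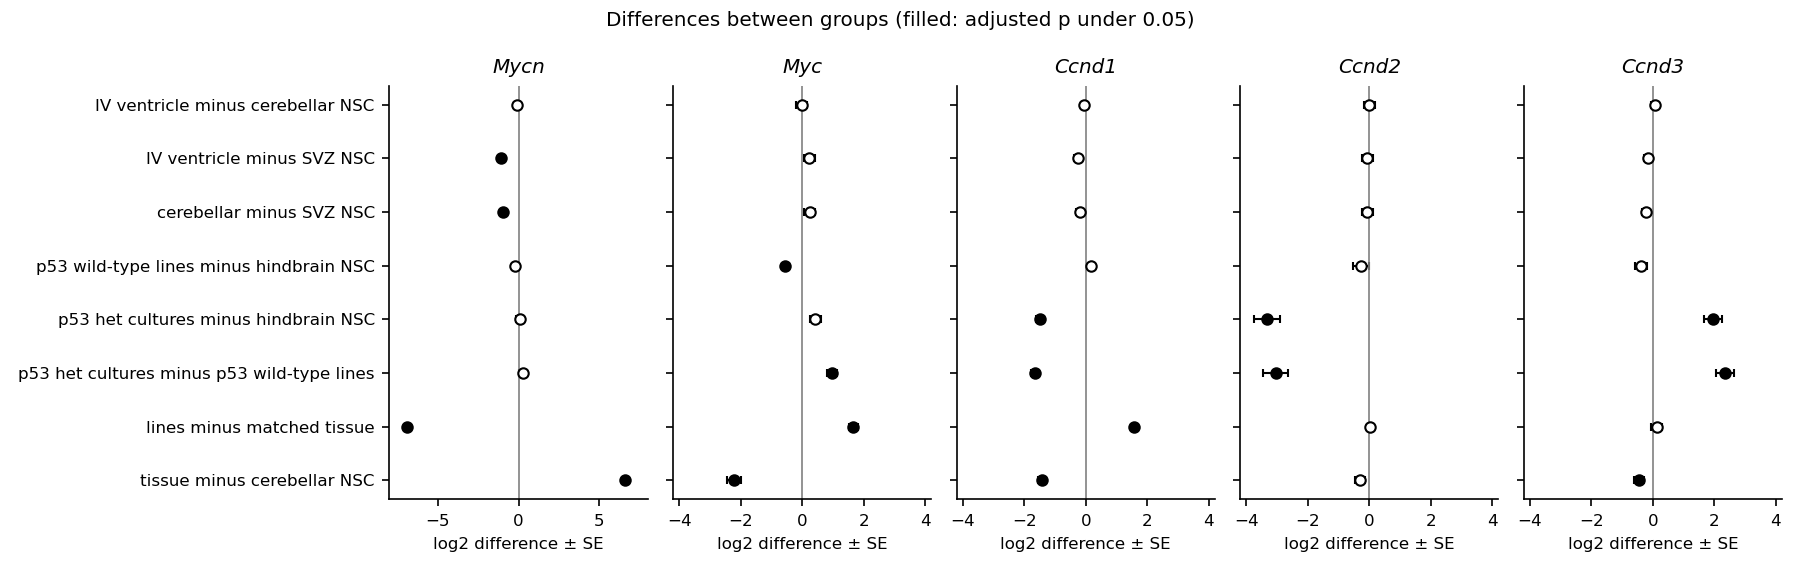
Log2 difference ± SE (horizontal axis, with a wider scale for Mycn) of each member in 8 comparisons (rows, first group minus second); filled points have an adjusted p under 0.05, and Mycn differences from groups under the low level guide are drawn as measured. Mycn is far from 0 where tissue is compared, and Ccnd2 and Ccnd3 where het cultures are.

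The lists around the members were counted in the het comparison too, where 26.3% of all genes were called. The median over all genes was 0.03. Of 16 EGF and FGF response genes, 9 were lower in het cultures than in wild-type lines and none was higher (median -1.26). Dusp6 differed by -2.46 ± 0.19 (adjusted p = 3.76e-08), Spry2 by -2.01 ± 0.15 (adjusted p = 3.43e-08) and Spry4 by -3.23 ± 0.32 (adjusted p = 7.78e-07). Beside them, Egfr differed by -5.34 ± 0.46 (adjusted p = 1.87e-07), 6 of 7 neural stem cell markers were lower, and astrocyte markers averaged 3.82 and 5.72 in the het cultures against 5.22 to 5.98 in the lines. No microglia marker was called. The part of these markers in the differences of the members was not tested.

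Of 19 S phase and mitosis genes, 8 were lower in het cultures and none higher (median -0.45), including Mki67 (-1.15 ± 0.13, adjusted p = 3.87e-06), Rrm2 (-1.90 ± 0.30, adjusted p = 1.44e-04) and Mcm2 (-0.82 ± 0.16, adjusted p = 8.50e-04). Of the 12 genes of the cyclin kinase list, 5 were lower and Cdkn2a was higher. Cdkn2a, whose locus encodes p16 and Arf, read 7.12 and 7.13 in the het cultures and was higher by 3.21 ± 0.87 (adjusted p = 0.0101). Cdkn1a, a p53 target that inhibits cyclin-dependent kinases, differed by -1.83 ± 0.35 (adjusted p = 7.08e-04), Cdkn2c by -0.89 ± 0.17 (adjusted p = 6.03e-04) and Rb1 by -0.79 ± 0.16 (adjusted p = 0.00102). Cdk4 (-0.05 ± 0.13, adjusted p = 0.825) and Cdk6 (0.10 ± 0.66, adjusted p = 0.946) were not called.

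Among 24 Myc target genes 5 were higher in het cultures, namely Ppan, Bop1, Nop56, Srm and Gnl3, by 0.61 to 0.88, and Shmt2 was lower (median 0.05). Of the Myc partners Mxi1 was higher by 1.28 ± 0.19 (adjusted p = 7.60e-05), Mycl by 1.08 ± 0.38 (adjusted p = 0.0424), and Max differed by -1.20 ± 0.37 (adjusted p = 0.0222). For the Myc targets and the Myc partners alike, the share of genes called was near the 26.3% of all genes. Of 11 turnover genes 3 were higher and 4 lower. Fbxo31 (0.99 ± 0.19, adjusted p = 9.64e-04) and Fbxo4 (0.74 ± 0.15, adjusted p = 9.72e-04), F-box proteins reported to target cyclin D1, were higher, and Fbxw7 (-0.71 ± 0.12, adjusted p = 1.98e-04) and Gsk3b (-0.81 ± 0.18, adjusted p = 0.00274), which act in the degradation of Myc proteins, were lower. Of the 7 hedgehog genes only Sufu was called, lower (-0.51 ± 0.14, adjusted p = 0.0137).

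In tumour cultures a whole chromosome can shift in expression, so each member was set beside the median of the brighter genes on its chromosome, relative to the NSC mean and to the genome-wide median of the sample. On chromosome 15, which carries Myc (357 genes), the median was 0.62 in tumour 27 and 0.58 in tumour B, 0.39 in line 49 and -0.09 to -0.02 in the other 7 lines. Myc in line 49 was 7.23, near the median of the lines. On chromosome 17, which carries Ccnd3 (438 genes), the median was 0.45 in line 91, which had the highest Ccnd3 of the lines, and 0.26 and 0.20 in tumours 27 and B, against -0.11 or more and under 0.01 in the other lines. The tissue of tumour 91 had a chromosome 17 median of 0.38 and a Ccnd3 of 6.71, in the middle of the tissues.

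Chromosome 6, which carries Ccnd2 (454 genes), had medians of 0.43 to 0.53 in lines 9, 91 and 92 and -0.04 to 0.07 in the other 5 lines. The tissues did not follow their lines throughout. Their medians were 0.39 in tumour 91, 0.41 in 92 and 0.10 in 9, and 0.34 in 68, 0.27 in 77 and 0.23 in 83. Those of tumours 49 and 74 were 0.05 and -0.00019. Ccnd2 in lines 9, 91 and 92 was 10.98, 11.18 and 10.98, inside the range of the other lines. In tumours 27 and B the chromosome 6 median was 0.02 and -0.02 while Ccnd2 was low. On chromosome 12, which carries Mycn (320 genes), tumour 27 had a median of -0.71 and tumour B of -0.22, and on chromosome 7, which carries Ccnd1 (633 genes), all tumour cultures lay between -0.19 and -0.06. The part of these shifts in the values of the members was not tested.

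**Figure D5:**
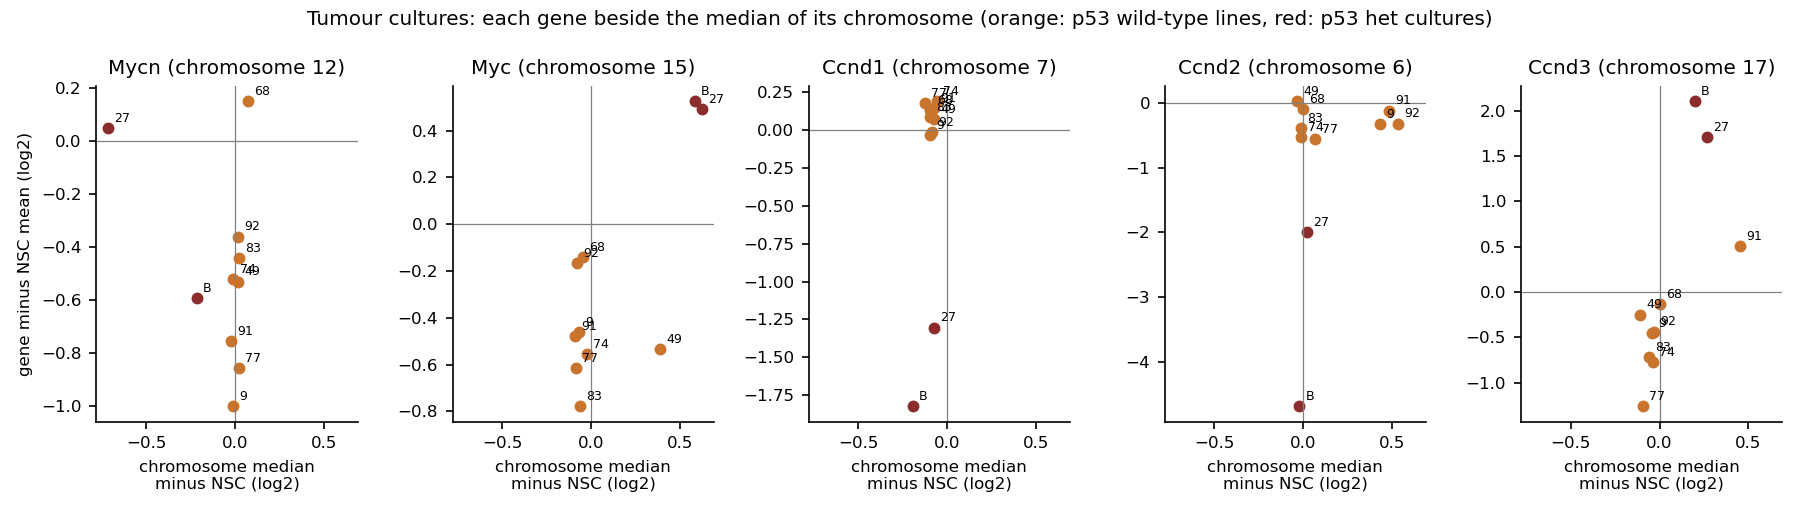
Each member's log2 value minus the NSC mean (vertical axis) beside the median log2 shift of its chromosome (horizontal axis) in 8 wild-type lines (orange) and 2 het cultures (red), labelled by tumour. Line 91 is high on both axes for Ccnd3, and the het cultures are high on both for Myc and at about 0 on the chromosome axis for Ccnd2.

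Within a group, members were compared across its 8 samples in 8 correlations, 4 in lines and 4 in tissues. Ccnd2 and Ccnd3 varied together over the 8 wild-type lines, past the threshold by rank but not by Pearson's r after adjustment, with Pearson's r = 0.80 (exact permutation p = 0.0147, adjusted 0.117) and Spearman's rho = 0.90 (exact permutation p = 0.00456, adjusted 0.0365). Without the 2 lines farthest from the median of Ccnd2, r was 0.85. Each date mark of the lines holds 4 of them, too few for a value within it. In tissue the same cyclins gave r = 0.23 (exact permutation p = 0.588, adjusted 0.672) and rho = 0.19 (exact permutation p = 0.665).

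In tissues Mycn and Myc were not correlated past the threshold after adjustment. In the lines no correlation of Mycn is given, since 7 of 8 values were under the low level guide. Their r in tissues was 0.69 (exact permutation p = 0.0601, adjusted 0.190) and rho 0.71 (exact permutation p = 0.0576), and r was 0.63 without the 2 farthest. Ccnd1 and Ccnd2 gave r = -0.23 (exact permutation p = 0.569, adjusted 0.672) and rho = -0.43 in lines. In tissues they gave r = 0.68 (exact permutation p = 0.0711, adjusted 0.190) and rho = 0.74 (exact permutation p = 0.0458, adjusted 0.154), with an r of 0.39 without the 2 farthest. Ccnd1 and Ccnd3 gave r = -0.14 in lines and -0.26 in tissues (exact permutation p = 0.749 and 0.534).

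The genes whose levels over the 27 samples were most like those of a member were found among 4354 genes with an SD of at least 0.5, by Pearson's r, as a description with no test. For Mycn these were Uncx (0.989), Rgs5 (0.988) and Igfbpl1 (0.988). Rgs5 is a gene of pericytes and 1 of the endothelial and pericyte markers above. For Myc they were Phlda1 (0.940), Csad (0.936) and Ldlrad3 (0.935), and Phlda1 is also on the list of EGF and FGF response genes. For Ccnd1 they were Sh3pxd2b (0.964), Igfbp3 (0.961) and Atrnl1 (0.960), for Ccnd2 Adgrl2 (0.941), Eda2r (0.885) and Adcyap1r1 (0.877), and for Ccnd3 Bcat2 (0.886), Ehd4 (0.881) and Pcolce2 (0.880). The values for Mycn and Myc share the division of the samples into tissue and culture. Those for Ccnd1 share the division between tissue with het cultures, which are low, and the other samples. Those for Ccnd2 and Ccnd3 share the distance of the 2 het cultures from the other samples.

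Over the 19 cultures alone, among 2606 genes, the nearest genes were Six3 for Mycn (0.836), Macrod1 for Myc (0.876), Kcnd3 for Ccnd1 (0.963), Mlc1 for Ccnd2 (0.983) and Pcolce2 for Ccnd3 (0.914). Six3 is a forebrain homeobox gene, and the SVZ cultures are those with the highest Mycn, the other cultures being near or under the low level guide. Between members over the cultures, r was 0.91 for Ccnd1 with Ccnd2 and -0.85 for Ccnd1 with Ccnd3, values in which the 2 het cultures lie far from the rest.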

How the data were processed

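Total RNA was measured on 31 Affymetrix mouse arrays. Per the submitters' processing notes the authors made the deposited log2 values with RMA, a method that corrects background, normalizes between arrays and summarises probes. The RMA version and the probe set definition were not given in the sources used here. Compression of low signals by such processing can shrink differences of dim genes.

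Of 45101 probe sets, 34958 carried 1 gene symbol in the platform annotation and were used, 932 carried several and 9211 none here. Symbols were checked against RefSeq (34754 matched, 0 changed), which gave 18194 genes. Technical replicates were averaged to 27 samples. The members, gene lists and the rule for naming genes (the members, the 3 genes most like each, and up to 3 called list genes in each direction by smallest p, with some other list genes and the promoter named after their values were seen) were chosen with earlier results of these data known.

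limma 3.58.1 in R 4.3.3 was run two-sided on all genes with Benjamini-Hochberg adjustment at 0.05. The 9 NSC arrays shared 1 fit (6 residual degrees of freedom), the 19 cultures another (14), tissue and NSC were fitted together (13), and lines and tissue were fitted with the tumour as a block (7), since both carry the tumour's identifier. Deviations from the group means correlated between line and tissue of a tumour at -0.01 to 0.22. NSC with the same replicate number deviated together between IV ventricle and SVZ (0.25 to 0.32) and cerebellar and SVZ cultures (0.17 to 0.34). Between IV ventricle and cerebellar cultures they did not in every replicate (-0.14 to 0.38). Cerebellar and SVZ cultures of the same replicate number also share a date mark, so pairing and mark cannot be told apart there. The main regional fit used no replicate block. The number of arrays limits the precision. Fits were tested on simulated data. Alternatives were array scalings, filters, probe sets, priors, sets of arrays, blocks, references and leaving out samples. The chromosome medians, a random date mark block in 2 comparisons and a floor for low Mycn values were added after the data were seen. Other calculations used Python 3.11.15, pandas 2.3.3, numpy 2.4.6, scipy 1.17.1 and matplotlib 3.10.9.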

Additional observations from a re-analysis of the deposited data

Results flagged for a closer look

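In 4 members the effect of tumour origin against hindbrain NSC differed between het cultures and wild-type lines, by the test of the difference itself in limma's fit of all 19 cultures. The NSC reference cancels in that difference. The test is therefore the comparison of het cultures with wild-type lines given above, which called 26.3% of all genes, and no separate result. The difference of the 2 effects was 0.98 for Myc, -1.66 for Ccnd1, -3.05 for Ccnd2 and 2.34 for Ccnd3 on the log2 scale. For Ccnd1 and Ccnd3 the effects had opposite signs, though the effect in wild-type lines was not called for either (0.17 and -0.38). For Ccnd2 both were below 0 (-3.32 in het cultures and -0.27 in wild-type lines), and for Myc they were 0.43 and -0.55. In none of the 15 sets of 8 values examined for an extreme value was the highest or lowest apart from the rest. The sets were the wild-type lines, the tissues and the line less tissue differences of each member. NSC and het cultures were not examined in this way. Chance alone would mark about 1 in 20 such sets.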

How the results depend on the processing

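Calls of Mycn, Myc and Ccnd1 between lines and tissue, and of the cyclins and Myc between het cultures and wild-type lines, kept their direction under all alternatives run apart from the Mycn probe set 1425923_at, and Myc between het cultures and wild-type lines was under a 2-fold minimum. That probe set reversed Mycn to 0.12 for lines less tissue, -0.11 for tissue less cerebellar NSC, 0.0751 for IV ventricle less SVZ NSC and 0.14 for cerebellar less SVZ NSC, and the dim Ccnd3 probe set 1438805_at gave 0.0115 for tissue less cerebellar NSC. Differences of change between Mycn and Myc, Ccnd1 and Ccnd2, and Ccnd1 and Ccnd3 were -8.63, 1.51 and 1.28 in the 4 tumours of 1 date mark and -8.47, 1.56 and 1.60 in the other 4, where 4 tumours cannot pass an exact test (adjusted p = 0.167). The Mycn values in these differences are as measured, and with those under the low level guide set to it, an alternative chosen after seeing the data, the mean over 8 tumours was -8.24 rather than -8.55.

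Counts of genes called moved by over 1.5 times as follows. With a 2-fold minimum they were 120 (cerebellar less SVZ NSC), 352 (wild-type lines less hindbrain NSC), 1980 and 1810 (het cultures less hindbrain NSC and less wild-type lines), 2762 (lines less tissue) and 2831 (tissue less cerebellar NSC). Without dim genes they were 86 for IV ventricle and 126 for cerebellar less SVZ NSC. With the date mark as a fixed block they were 9 (IV ventricle less cerebellar NSC) and 728 (cerebellar less SVZ NSC). With the mark as a random block the count was 820 for wild-type lines less hindbrain NSC. Within the shared mark the counts were 2 (IV ventricle less cerebellar NSC) and 58 (IV ventricle less SVZ NSC), and 5935 within the 4 tumours of the other marks. With only the arrays compared 349 were called for cerebellar less SVZ NSC, and for wild-type lines 673 against cerebellar and 593 against IV ventricle NSC alone. Leaving out 1 sample gave 0 to 7 for IV ventricle less cerebellar NSC (7 without IV ventricle replicate 2). It gave 51 to 181 for IV ventricle less SVZ NSC (51 and 60 without SVZ replicates 2 and 1, 86 without IV ventricle replicate 1). It gave 61 to 245 for cerebellar less SVZ NSC (61, 66 and 128 without SVZ replicates 1, 2 and 3, 98 and 81 without cerebellar replicates 1 and 3) and 1060 to 1896 for wild-type lines less hindbrain NSC (1060 without IV ventricle replicate 2). The cause was not tested.

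A replicate block over the NSC replicate numbers left 0, 196 and 280 genes called in the 3 regional comparisons, and Mycn kept its calls (adjusted p = 0.0131 and 0.0178). Without the tumour block 8984 genes were called between lines and tissue. RMA values give no detection call, and the Mycn values of the cultures lie near the low level guide.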
